A study of Mus musculus with 2 samples.

Results

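CD209 and C-type lectin pattern receptors were examined as 10 genes, Cd209a, Cd209b, Cd209d, Cd209f, Cd209g, Clec4d, Clec4e, Clec4n, Clec7a and Clec10a, among the 38320 gene entries of the series. The genes were found by their symbols in the GENCODE M21 annotation, and all 10 had a value in both libraries. The set was selected in part on a measured value, the large fall of Cd209g between the genotypes, so differences between the genotypes are given as a description, without a test. The libraries came from adult male C57/Bl6 mice given carbon tetrachloride (CCl4), a hepatotoxin, for 5 weeks. Control mice carried floxed Foxf1 alleles (labelled Foxf1 fl/fl, Wild-type). Knockout mice (labelled αSMACreER;Foxf1 fl/fl, Knockout, and written αSMACreER;Foxf1-/- in the plots) carried in addition a tamoxifen-inducible Cre under the promoter of α-smooth muscle actin. This promoter is active in myofibroblasts and smooth muscle. Tamoxifen was injected during the injury period, and the methods do not say separately whether control mice received it. Liver cells that stuck to plastic within 2 h were collected as the stromal fraction, samples were pooled within a genotype, and 1 library per genotype was sequenced, so no difference below has a replicate check. Foxf1 itself was not analysed here.

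C-type lectin receptors are membrane proteins of macrophages, dendritic cells and other myeloid cells that bind sugars and lipids on microbes and on the body's own dying cells. Some of the CD209 receptors, relatives of human DC-SIGN, bind mannose- and fucose-rich glycans and can take up the particles that carry them. Ligands of Cd209f and Cd209g were not examined here. Dectin-type receptors signal through the kinase Syk and the adaptor Card9 to NF-κB, which turns on cytokine and chemokine genes. In liver, Kupffer cells, the resident macrophages of the sinusoids, use such receptors to clear particles from portal blood.

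Markers of the cell types that the adherent fraction can hold were read first. The summed FPKM (fragments counted relative to transcript length and to the size of the library) of 11 Kupffer cell markers was 8968 in control and 6878 in knockout, and none of them was at 0. The sum of 10 stellate cell and myofibroblast markers was 203 and 284, and 3 of those 10 stayed below a mean FPKM of 1. The Kupffer cell mRNAs listed were thus far more abundant than the stellate cell and myofibroblast mRNAs listed. Among the latter, Col3a1 (115 in control) and Col1a1 (70.2) were the most abundant. Sums over chosen genes do not give the share of each cell type. The paper describes the purified cells as positive for Des and Acta2 and without markers of hepatocytes or Kupffer cells. In bulk RNA, fewer cells of a type and less RNA per cell cannot be told apart. About 9790000 mapped reads in control and 11170000 in knockout were estimated from the spacing of low values. The estimate is rough, since 48.7% and 48.3% of those values lay within 0.1 of a whole read. The 95% intervals given below as counting intervals follow from it and cover counting error only.

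Cd209f and Cd209g were the members with by far the lower mRNA levels in knockout cells, and they are near-copies of each other. Their upstream sequences are shown since both genes differed in the same direction and since the copying bears on how far their reads can be told apart. The 250 bases before each RefSeq start site (GRCm38.p6) were at chr8:4105765-4106014 on the minus strand for Cd209f and at chr8:4134486-4134735 on the plus strand for Cd209g. Capitals mark the part printed here of the longest run that both promoters share base for base. This run is 180 bases long and goes on past the start sites. The 250 bases upstream of Cd209b (chr8:3926842-3927091, minus strand) and of Cd209d (chr8:3878500-3878749, minus strand) are set beside these 2 without capitals. Cd209b and Cd209d did not pass 1.5-fold in the main calculation. Both rest on few reads, so equal levels are not shown, and Cd209d passed upwards once a length trend was removed.
Cd209f: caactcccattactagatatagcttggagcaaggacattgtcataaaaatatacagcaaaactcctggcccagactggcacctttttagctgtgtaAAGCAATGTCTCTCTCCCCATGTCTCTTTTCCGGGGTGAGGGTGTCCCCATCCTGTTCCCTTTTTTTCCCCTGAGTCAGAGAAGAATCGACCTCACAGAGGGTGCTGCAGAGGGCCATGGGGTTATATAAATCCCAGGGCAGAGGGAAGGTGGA
Cd209g: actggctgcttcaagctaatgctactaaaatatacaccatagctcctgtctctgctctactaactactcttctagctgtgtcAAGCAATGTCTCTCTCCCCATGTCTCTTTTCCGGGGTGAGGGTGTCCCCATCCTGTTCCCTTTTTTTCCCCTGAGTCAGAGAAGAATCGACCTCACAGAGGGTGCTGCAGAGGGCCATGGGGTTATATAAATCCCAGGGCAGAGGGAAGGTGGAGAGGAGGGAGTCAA
Cd209b: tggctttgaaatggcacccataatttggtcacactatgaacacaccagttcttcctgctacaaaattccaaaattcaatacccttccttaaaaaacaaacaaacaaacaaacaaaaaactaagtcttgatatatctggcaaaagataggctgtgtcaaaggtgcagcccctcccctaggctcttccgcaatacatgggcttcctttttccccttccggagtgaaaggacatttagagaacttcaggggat
Cd209d: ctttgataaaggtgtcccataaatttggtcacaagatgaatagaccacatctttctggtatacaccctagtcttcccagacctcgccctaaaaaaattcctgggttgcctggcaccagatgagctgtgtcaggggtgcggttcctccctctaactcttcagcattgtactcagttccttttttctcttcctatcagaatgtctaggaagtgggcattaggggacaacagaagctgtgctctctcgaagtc

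The shared run began 154 bases before the start site of Cd209f and 168 bases before that of Cd209g, and it went on for 26 and 12 bases from there. No other pair of the 7 Cd209 genes shared a run of more than 17 bases in the promoter of 300 bases. Over 300 bases around the start site, Cd209f and Cd209g were identical at 86.0% of positions, against 61.7% for the next pair, Cd209b and Cd209d. Within the shared run lay 1 match in each gene to TGANTCA, the letters of an AP-1 site (the dimer of Fos and Jun proteins), 83 to 77 bases before the start of Cd209f and 97 to 91 before that of Cd209g. Promoters in the table numbered 32851, and 7.81% of them held these letters, which are the same on both strands. Cd209f and Cd209g were the 2 of the 8 members with a promoter in the table that held them.

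Further motifs were searched on both strands of the same promoters. TAAACA, a core of a forkhead site, was in none of the 8 members' promoters and in 13.4% of all promoters. Only these letters were searched, so other forms of a forkhead site could have been missed. GAGGAAG, a PU.1 site (a factor of myeloid cells), was in 1, that of Clec4d, and in 13.6% of all. TTGCNNAA, a C/EBP site, was in 2, those of Cd209b and Clec4e, and in 10.8% of all. These are matches of letters, and Clec4n and Clec10a had no entry in the table.

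Cd209g (ENSMUSG00000079168, chromosome 8 from 4134733 to 4137707, plus strand, coordinates of the deposited mm10 loci) had an FPKM of 45.4 in control and 4.40 in knockout cells. It was 10.5-fold lower after the libraries were put on one scale by their median ratio. On the log2(FPKM + 0.1) scale, which is used for all differences and understates the change of low genes, the difference was -3.36 (counting interval -3.84 to -2.95, from about 431 and 48 reads). Cd209g thus went from the fifth most abundant member to the seventh.

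Cd209f (ENSMUSG00000051906, chromosome 8 from 4102787 to 4105835, minus strand) had an FPKM of 40.4 in control and 6.79 in knockout cells. It was 6.05-fold lower, a log2 difference of -2.58 (counting interval -2.97 to -2.24, about 390 and 75 reads). The genes stand head to head, 28897 bases apart. Of the 12839 genes whose mean FPKM reached 1, 92 had a difference as low as that of Cd209g or lower and 126 as low as that of Cd209f. For the 6175 genes whose mean FPKM reached 10 these numbers were 25 and 33. Such ranks only describe the pair, since the fall of Cd209g helped to choose the set.

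Reads of Cd209f and Cd209g could be exchanged in part. Their longest coding transcripts, of 1186 and 1169 bases, shared an unbroken run of 416 bases, from base 195 to 610 of Cd209f. Of all windows of 75 bases, the read length, 31.6% of the Cd209f transcript and 33.2% of the Cd209g transcript were found without a mismatch in the other gene. With up to 2 mismatches the shares were 48.7% and 49.4%. How such reads were divided between the genes is not given in the sources used here, so each single value is uncertain. The sum of the pair depends less on that division, as far as reads come from these coding transcripts, which are close in length. The longest transcripts of any type had 1537 bases for Cd209f and 3419 for Cd209g. Reads left out as shared would be missing from the sum. The summed FPKM was 85.8 in control and 11.2 in knockout, 7.80-fold lower. Within the pair, the ratio of Cd209f to Cd209g was 0.890 in control and 1.54 in knockout.

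**Figure D1:**
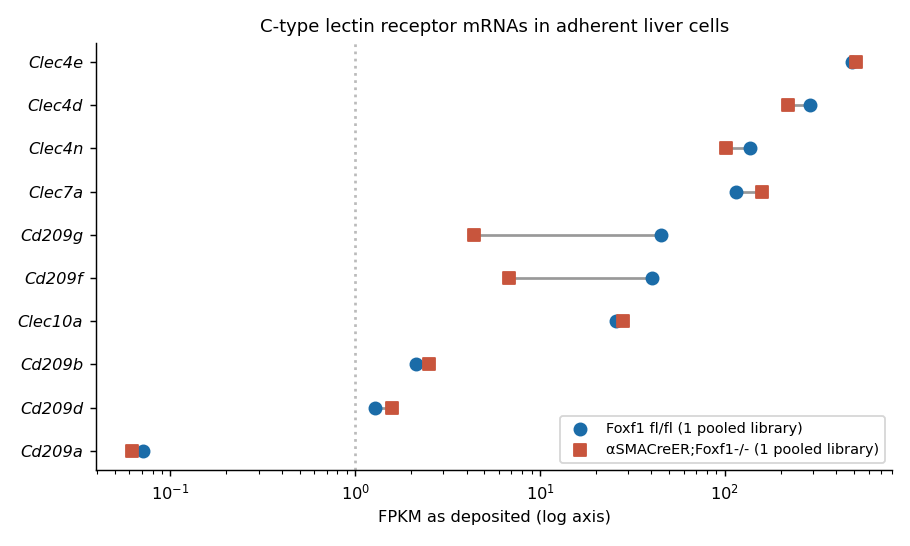
FPKM of the 10 receptors (log axis) in the single control library (circles) and the single knockout library (squares), with the dotted line at an FPKM of 1. Cd209g (45.4 and 4.40) and Cd209f (40.4 and 6.79) are drawn far apart, while the symbols of the other 8 lie close together, Clec4e highest and Cd209a lowest.

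The remaining CD209 members were low in both libraries. Cd209b (ENSMUSG00000065987, chromosome 8 from 3917657 to 3926814), a receptor of marginal zone macrophages in spleen that binds bacterial polysaccharide, had an FPKM of 2.14 and 2.50, a log2 difference of 0.19 (counting interval -0.46 to 0.81). Cd209d (ENSMUSG00000031495, chromosome 8 from 3871827 to 3878555) had an FPKM of 1.27 and 1.58, from about 9 and 13 reads, a log2 difference of 0.27 (counting interval -1.02 to 1.72). Neither difference was detectable at this depth.

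Cd209a (ENSMUSG00000031494, chromosome 8 from 3743395 to 3748984), the mouse gene called DC-SIGN and a marker of monocyte-derived dendritic cells, had an FPKM of 0.0707 and 0.0620. This is about 1 read in each library, so Cd209a was the member that did not pass the filter of a mean FPKM of 1. None of Cd209a, Cd209b and Cd209d shared a read-length window with another gene's transcript, even with 2 mismatches allowed.

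The 10 members left out 2 genes of the same cluster. Cd209c had an FPKM of 2.41 in control and 5.96 in knockout, a log2 difference of 1.25 (counting interval 0.68 to 1.91), so it rose where its neighbours Cd209f and Cd209g fell. However, 37.9% of its read-length windows occurred in other genes' transcripts with up to 2 mismatches. Cd209e was listed at 0 in control and had 0.0573 in knockout, about 1 read.

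Together the 7 Cd209 genes span 394313 bases of chromosome 8, with 148040 bases between Cd209c and Cd209f. The 5 genes at the Cd209a end summed to an FPKM of 5.90 in control and 10.2 in knockout. Cd209f and Cd209g made up 93.6% of the summed FPKM of the 7 genes in control and 52.4% in knockout. Beyond Cd209g, the nearest protein-coding gene, Evi5l, had 1.79 and 2.88, a log2 difference of 0.63 (counting interval 0.22 to 1.13). Clec4g, a lectin of sinusoidal endothelial cells at the other end of the cluster, had 254 and 187, a difference of -0.47. Cd209f and Cd209g were the protein-coding genes inside the cluster or within 100 kb of it that passed the filter and were at least 1.5-fold lower, and smaller negative differences were measured at Clec4g, Trappc5 (-0.38) and Mcemp1 (-0.28).

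**Figure D2:**
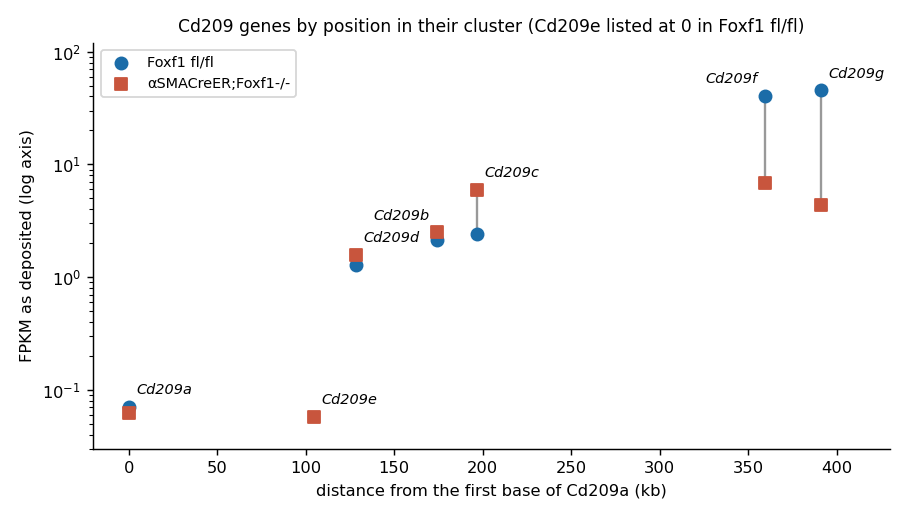
FPKM (log axis) of the 7 Cd209 genes against their distance in kb from the first base of Cd209a, in control (circles) and knockout (squares). The pair at 359 and 391 kb, Cd209f and Cd209g, is highest in control and lower in knockout, and Cd209c at 197 kb is higher in knockout. Cd209e was listed at 0 in control and has no circle.

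The Dectin-type receptors were the abundant members and differed by less than 1.5-fold. Clec4e (Mincle, ENSMUSG00000030142, chromosome 6 from 123281789 to 123289870), which binds mycobacterial cord factor and a nuclear protein released by dead cells, was the most abundant member of both libraries, with an FPKM of 485 and 514. The log2 difference was 0.06 (counting interval 0.02 to 0.10), and it became -0.14 with the trend over the longest transcript removed but stayed above 0 under every scaling tried. Clec4d (ENSMUSG00000030144, chromosome 6 from 123262107 to 123275268), the partner of Mincle in cord factor recognition, had an FPKM of 288 and 219, a log2 difference of -0.42 (counting interval -0.50 to -0.35).

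Clec4n (Dectin-2, ENSMUSG00000023349, chromosome 6 from 123229843 to 123247021), a receptor for α-mannans of fungi, had an FPKM of 137 and 102, a log2 difference of -0.45 (counting interval -0.57 to -0.34). Clec4n, Clec4d and Clec4e are neighbours within 60028 bases, and Clec4a2, the other protein-coding gene past the filter within 100 kb of them, had 51.5 and 37.9, a difference of -0.47. The ratio of Clec4d to Clec4e was 0.594 in control and 0.426 in knockout. Clec4e has the longer transcripts, and with the trend over the longest transcript removed the differences were alike, -0.12 for Clec4d, -0.15 for Clec4n and -0.14 for Clec4e. With the trend over the coding transcript removed they were -0.11, -0.14 and 0.12.

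Clec7a (Dectin-1, ENSMUSG00000079293, chromosome 6 from 129461591 to 129472777), the β-glucan receptor, had an FPKM of 115 and 158, a log2 difference of 0.43 (counting interval 0.36 to 0.51). It moved from the fourth to the third most abundant member, past Clec4n. Clec7a is annotated as a polymorphic pseudogene in GENCODE M21 and was kept by its symbol. Summed over Clec4d, Clec4e, Clec4n and Clec7a, FPKM was 1024 in control and 992 in knockout, and these 4 genes held 89.9% and 95.8% of the summed FPKM of all members.

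Clec10a (ENSMUSG00000000318, chromosome 11 from 70156197 to 70170834), a macrophage and dendritic cell lectin for galactose and N-acetylgalactosamine, had an FPKM of 25.9 and 28.2, a log2 difference of 0.10 (counting interval -0.07 to 0.26). Its near-copy Mgl2 had 7.37 and 11.8, a difference of 0.65. The Clec10a transcript shared 17.8% of its read-length windows with Mgl2 at up to 2 mismatches, so part of their reads could be exchanged.

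**Figure D3:**
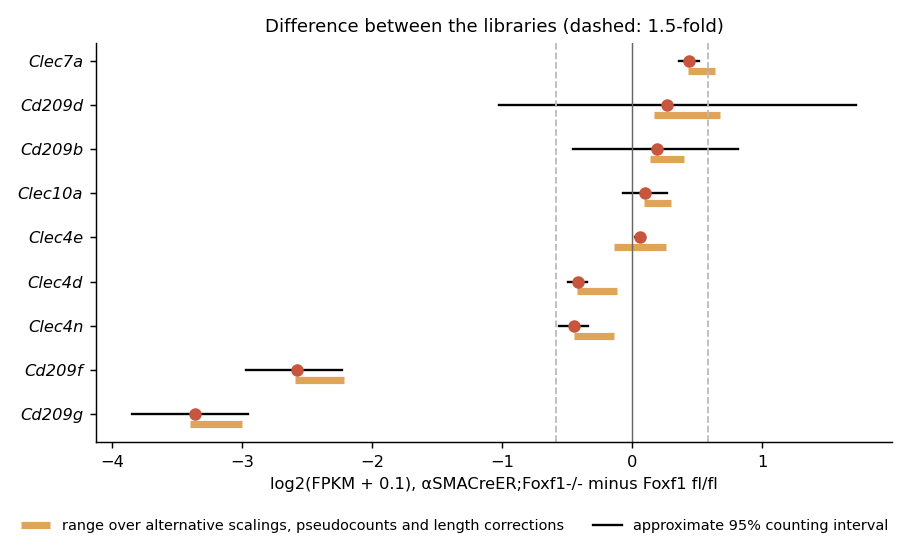
Log2 difference (knockout minus control) of the 9 receptors that passed the filter, with approximate 95% counting intervals (black lines) and the range over alternative scalings, pseudocounts and length corrections (broad bars). Cd209g (-3.36) and Cd209f (-2.58) lie below the dashed line for 1.5-fold lower under every setting, and no other point lies past a dashed line.

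In all, 9 of the 10 members passed the filter, of which 2 were at least 1.5-fold lower in knockout cells, 0 were at least 1.5-fold higher and 7 were neither. Over all 12839 genes tested, 13.2% were at least 1.5-fold lower and 12.9% at least 1.5-fold higher. Since Cd209g helped to choose the set, nothing is read from that contrast. The median log2 difference was 0.06 over the 9 members that passed and -0.01 over all 10, against 0.01 over all genes tested. Counting intervals excluded 0 for 6 members, Cd209f, Cd209g, Clec4d, Clec4e, Clec4n and Clec7a. When both libraries were set to the same FPKM total, the median over all genes moved to 0.21, and under that scaling the share of higher among all calls was 71.7%, against 49.4% with the median ratio. With it Clec7a also passed 1.5-fold. Short transcripts were lower in knockout in general, with a median of -0.36 among genes whose coding transcripts were as long as those of Cd209f, Cd209g and Cd209d, and once this trend was removed Cd209d passed 1.5-fold upwards.

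**Figure D4:**
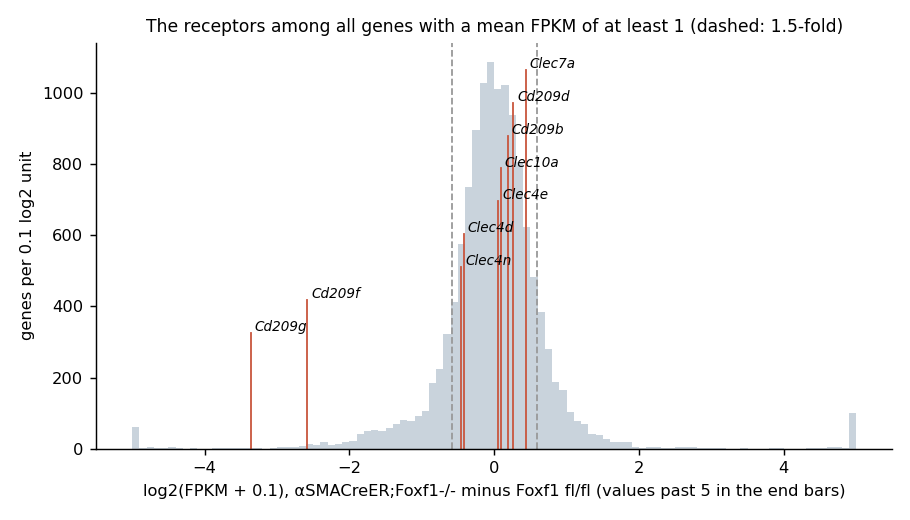
Number of genes per 0.1 log2 unit of difference (knockout minus control) among the 12839 genes tested, with the 9 receptors as vertical lines whose heights only keep the names apart. Most receptors lie inside the dashed 1.5-fold lines with the bulk of genes, and Cd209f and Cd209g lie in the lower tail.

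Levels of cell type markers differed between the libraries beside the falls of Cd209f and Cd209g. Of 11 Kupffer cell markers, 1 was at least 1.5-fold lower, the lectin Clec4f (1117 and 753, a log2 difference of -0.59), and 0 were higher. Clec4f no longer passed 1.5-fold with values as deposited (-0.57), upper-quartile scaling (-0.51), equal FPKM sums (-0.39) or the length trend removed (-0.50, or -0.53 by coding transcript). The differences of the 11 ran from -0.59 to 0.00, with a median of -0.35, against -3.36 for Cd209g and -2.58 for Cd209f. C1qa, C1qb, C1qc, Folr2 and Vsig4 have short transcripts (1040 to 1432 bases), and the others have longer ones. Genes in the length group of Clec4d (1323 bases) had a median of -0.30. This trend was not removed from the Kupffer cell median, so no fall beyond it is read from that median. Timd4, a receptor of long-lived Kupffer cells, had 54.9 and 41.1. Of 11 monocyte and monocyte-derived macrophage markers, whose FPKM summed to 6023 and 5974, 0 were lower and 2 higher, Cx3cr1 (2.30 and 3.82) and Itgam (46.9 and 75.6). Their differences, 0.69 and 0.66, lay near the threshold, and both have long transcripts (4493 and 4682 bases). Genes in the length group of Clec4e (4804 bases) had a median difference of 0.20, so the general length trend runs the same way. Of 12 dendritic cell markers, with sums of 7193 and 6765, 0 were lower and 1 was higher, Clec9a (3.67 and 6.70). Cd74 (4066 and 3819), H2-Aa (1523 and 1473) and H2-Ab1 (1351 and 1191) held most of these sums. Flt3 (4.31 and 4.09) and Xcr1 (2.02 and 2.22) were low.

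Most neutrophil markers and all hepatocyte markers listed fell. Of 10 neutrophil markers, 8 were at least 1.5-fold lower, with sums of 2339 and 967 and a median of -1.36, and Ly6g was at 9.82 in control and listed at 0 in knockout. S100a9, the most abundant of them, had 1258 and 504. Elane had 5.60 and 0.669, from about 43 and 6 reads, a difference of -2.91 (counting interval -4.58 to -1.82), lower than that of Cd209f (-2.58). The other 2, Csf3r (48.4 and 53.6) and Cxcr2 (1.55 and 1.88), had differences of 0.12 and 0.24. Of 8 hepatocyte markers, 8 were lower, with sums of 3921 and 1398 and a median of -1.51, and Alb (albumin) had 2292 and 912. Median differences of the other marker groups were smaller in size, but the difference of the B cell marker Pax5 was not. Of 8 sinusoidal endothelial cell markers, 0 passed 1.5-fold in either direction, with sums of 861 and 906. Stellate cell and myofibroblast, B cell and T and NK cell lists had 1 marker higher each and 0 lower. The higher markers were Des (1.70 and 3.29, a difference of 0.89), Pax5 (2.40 and 9.92, 1.98) and Cd4 (6.34 and 14.1, 1.11). Of 7 stellate cell and myofibroblast markers past the filter, 5 had positive and 2 negative differences. The negative ones were Acta2 (-0.48, counting interval -0.86 to -0.12) and Tagln (-0.37). Of 5 B cell markers, 4 were positive, among them Cd79b (0.06), and 1 was negative, Cd79a (-0.06). The part of these marker levels in the differences of Cd209f and Cd209g was not tested.

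Other C-type lectin receptors went in both directions. Of 28 listed, 24 passed the filter, 6 were at least 1.5-fold lower and 5 higher, with a median log2 difference of -0.25. With values as deposited the counts were 3 lower and 5 higher, and with upper-quartile scaling or equal FPKM sums 3 lower and 6 higher, so the balance of the list rested on the scaling. Lower were Asgr1 (25.5 and 6.73) and Asgr2 (8.04 and 3.09), the subunits of the asialoglycoprotein receptor of hepatocytes, Clec4b1 (15.3 and 8.41), Cd207 (13.6 and 9.08), Clec4f and Clec12b, the last on about 23 and 17 reads (counting interval -1.65 to 0.32). Higher were Cd209c, Clec1a (0.916 and 2.28), Clec9a, Mgl2 and Ly75 (4.34 and 6.89), an endocytic receptor of dendritic cells. The mannose receptor Mrc1 had 77.2 and 95.7, a difference of 0.28. The most abundant after Clec4f were Clec4g and Clec2d (134 and 110), which did not pass 1.5-fold. Of the lectin receptors in the list that passed the filter, none had a difference as low as those of Cd209f and Cd209g. That order is a description, since the set was chosen in part for the fall of Cd209g, and Cd209f could exchange reads with it.

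Genes of the signalling chain below Dectin-type receptors were nearly level. Of 22, all passed the filter, 0 were at least 1.5-fold lower and 1 higher, Inpp5d (30.1 and 50.3), the inositol phosphatase SHIP, with a median of 0.08. The adaptor chains Tyrobp (1754 and 1344) and Fcer1g (879 and 661), through which Mincle, Dectin-2 and related receptors signal, had differences of -0.41 and -0.44. Both have short transcripts, and with the length trend removed the differences were -0.0018 and -0.03. Nfkb1 had 274 and 296, Syk had 135 and 160, and Card9 had 12.1 and 9.45.

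Genes that these receptors can switch on, most of them cytokine and chemokine genes, went in both directions. Of 20, all passed the filter, 6 were at least 1.5-fold lower and 3 higher, with a median of -0.47. The lower ones were Ccl3 (1348 and 806), Ccl4 (2703 and 1630), Tnf (575 and 359), Csf3 (138 and 89.2), Il6 (205 and 135) and Il12a (2.10 and 1.38). The higher ones were the cytokine gene Il12b (24.6 and 38.2) and the enzyme genes Nos2 (4.02 and 7.48) and Ptgs2 (67.9 and 104). Under an equal FPKM sum these counts became 0 lower and 5 higher, so the balance of this list rested on the scaling. With the trend over transcript length removed, 0 of the 20 were lower. Cxcl2 (2399 and 1722) and Ccl2 (1601 and 1206), 2 of the most abundant genes of the list, did not pass 1.5-fold.

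Among receptors that act together with the members, 9 genes passed the filter, 0 were at least 1.5-fold lower and 2 higher. These were Tlr4 (4.83 and 10.5), the receptor for bacterial lipopolysaccharide, and Itgam, a chain of complement receptor that lay near the threshold on a long transcript. Tlr2, which cooperates with Dectin-1, had 168 and 155, and the abundant Lgals3, Cd14 and Itgb2 had 1703 and 1461, 1391 and 1004, and 249 and 310. Of 8 genes for ligands made by the body itself, 7 passed, 0 were lower and 1 higher, Ceacam1 (7.66 and 13.0), a glycoprotein bound by DC-SIGN. The abundant Vim, Anxa5 and Anxa1 had 1837 and 1996, 349 and 303, and 154 and 199. Sf3b3, whose product is a ligand of Mincle, had 20.2 and 25.2, a difference of 0.29.

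**Figure D5:**
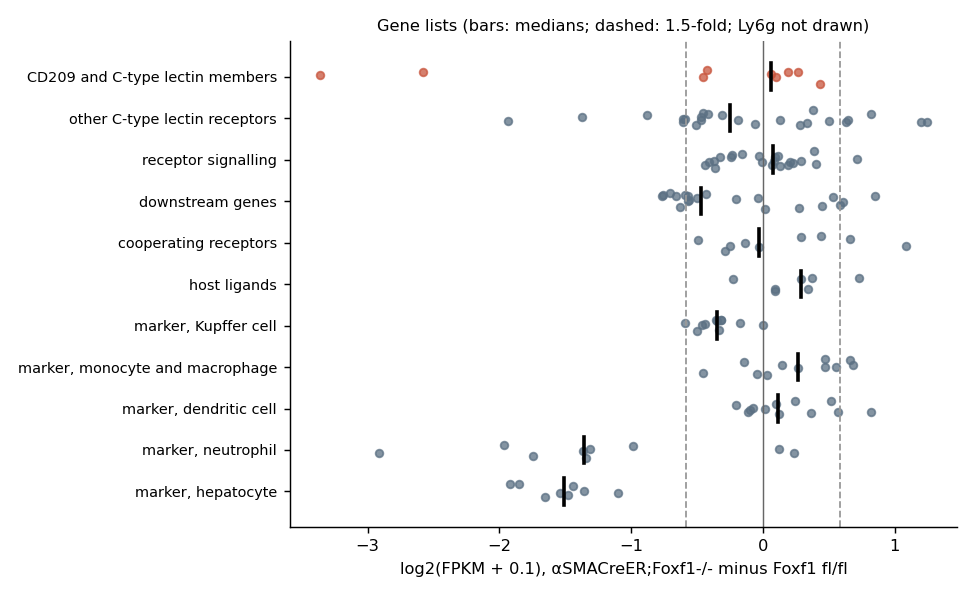
Log2 difference (knockout minus control) of each gene past the filter in the gene lists, with black bars at list medians and dashed lines at 1.5-fold. Cd209g, whose fall helped to choose the set, and Cd209f lie left of every gene drawn from the receptor, signalling, downstream and Kupffer cell lists. Neutrophil and hepatocyte markers are shifted to the left (medians -1.36 and -1.51), and the neutrophil marker Elane (-2.91) lies left of Cd209f. Ly6g, listed at 0 in knockout, is not drawn.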

How the data were processed

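The data were RNA-seq values of adherent liver cells after CCl4, from 1 pooled library of each genotype. Per the labels, libraries were made with a TruSeq kit and single-end reads of 75 bases were sequenced. The authors aligned reads to mm10 with TopHat. The deposited values are FPKM from Cufflinks for each Ensembl gene, already normalized to transcript length and library size. Symbols of GENCODE M21 were given to 36490 entries (95.2%). The members and gene lists were chosen with earlier results of these data known.

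FPKM values of the knockout were divided by 1.02, the median ratio over 12016 genes, and log2 was taken after adding a pseudocount of 0.1. Genes needed a mean FPKM of 1. The threshold of 1.5-fold follows the study's methods. FPKM values are not counts, so a count test was not run. Reads were estimated with an assumed fragment of 200 bases on the longest coding transcript, and counting intervals are exact binomial (Clopper-Pearson). The calculation was tested on simulated data. The genes named were all members and, in each list, up to 4 genes past 1.5-fold in each direction and the 3 most abundant, counts of 5 or fewer in full, and neighbours past 1.5-fold. Marker lists are given mainly as counts and sums. Genes named beyond these, such as Syk, Card9, Sf3b3, Mrc1, Timd4, Clec4g and Tlr2, were chosen after their values were seen. Promoters were those of RefSeq (GRCm38.p6), aligned with Biopython 1.88. Alternatives changed scaling, pseudocount, filter, threshold, repeated symbols and transcript length. Python 3.11.15, numpy 2.4.6, pandas 2.3.3 and scipy 1.17.1 were used.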

Additional observations from a re-analysis of the deposited data

How the results depend on the processing

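Cd209f and Cd209g were at least 1.5-fold lower under all 11 alternatives, with log2 differences from -2.60 to -2.22 and from -3.40 to -3.002 over the settings that change a difference. This could hardly have come out otherwise, since the scale factors tried ran only from 0.884 to 1.02 and the fall of Cd209g helped to choose the set. No alternative changed how reads shared by Cd209f and Cd209g were divided. The signs of Clec4e (-0.14 to 0.26) and Cd209a (-0.19 to 0.22) turned where a length trend was removed, for Clec4e that over the longest transcript, and those of the other members did not. The count of members higher became 1 with an equal FPKM sum (Clec7a) and 1 with either removal of the length trend (Cd209d), of which the one by coding transcript was chosen after seeing the data, since the longest Cd209g transcript keeps an intron. The cause was not tested.

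Other C-type lectin receptors lower numbered 3 with values as deposited, upper-quartile scaling, equal FPKM sums and removal of the length trend, and 2 at 2-fold and by coding transcript. Those higher numbered 3 at a mean FPKM of 5 and 2 at 2-fold. Signalling genes higher numbered 3 with an equal FPKM sum and 0 at 2-fold and under both length corrections. Downstream genes lower numbered 3 after scaling by the upper quartile, 0 with an equal FPKM sum, at 2-fold and under both length corrections, and those higher numbered 5 with an equal FPKM sum and 0 at 2-fold. Counts over all genes, higher first, were 2891 and 1140 with an equal FPKM sum, 2120 and 1410 with upper-quartile scaling, 3978 and 3302 with no filter, 681 and 951 at a mean FPKM of 5, and 576 and 799 at 2-fold.

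No paired analysis was possible because there was 1 library per genotype, which also leaves no replicate to omit. Depth limits Cd209a, Cd209b and Cd209d, which rest on about 1 to 51 reads per library.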
